A study of Mus musculus with 3 samples.

Results

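Of the 37271 genomic regions that the authors called as Nkx2.2-bound in oligodendrocyte progenitor cells (OPC), oligodendrocytes (OL) or both, 2861 (7.68%) lay inside a gene, at a moderate distance from a gene start and away from CpG islands. These gene body regions were chosen by 3 conditions on the annotation columns of the deposited table: no CpG island assigned, at least 1 listed gene for which the region is "in gene", and a smallest distance to any listed gene start above 1000 bp and at most 10000 bp. No signal value entered the choice. The smallest distance ran from 1009 to 9999 bp with a median of 4919 bp, and it is taken here from the middle of a region.

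Both states came from C57BL/6 mice. Progenitors were isolated from the cortex at postnatal day 7 with an antibody to PDGFRA, the receptor that marks them, and expanded in a medium that held 10 ng/mL PDGF-AA, 1 ng/mL NT-3 and 10 ng/mL CNTF. The OL state was obtained from these cultured progenitors by taking away PDGF-AA and adding 40 ng/mL T3, a thyroid hormone, for 48 h, so both states share the isolation and the culture and OL are cells made in a dish. Chromatin of 1.5e7 cells per library was precipitated with the monoclonal antibody to Nkx2.2 and sequenced, with 1 library per state. The number of animals pooled is not stated, and the input library was not analysed. Because each state has 1 library, no difference between states has a replicate check and no test was run; intervals printed here are 95% intervals over regions and cover counting error only. ChIP signal is not expression, so the labelled cell types could not be checked against their marker genes.

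Nkx2.2 is a homeodomain transcription factor of the ventral neural tube that is kept in the oligodendrocyte lineage, where it is known for promoting differentiation into myelin-forming cells, and it can repress its targets through Groucho/TLE corepressors. The first stretch of a gene body, downstream of the start, often holds the first intron, and enhancers that act on the gene itself or on its neighbours are frequent there. Such distal sites usually lack CpG islands and differ in this from most promoters. Whether each region falls in an exon, an intron or a UTR was not analysed here, and coordinates are those of the deposited table in build mm9.

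The name "downstream of the start" held for most but not all of these regions. In 2356 of them (82.3%, interval 80.9 to 83.7%) the nearest listed start was that of a gene the region lies in. The other 505 lay inside one gene and nearest to the start of another, with 381 upstream of that start and 124 past it. The start of the host gene, meaning a gene that contains the region, was within 10 kb in 2475 regions, beyond 10 kb in 386 and beyond 100 kb in 72 of those. A region at Pdgfra is of this kind: it lies 11173 bp into the gene and was included through the start of LOC100039125, 8817 bp away. Among all listed genes 1647 regions had a single one, and 72 lay in more than 1 gene. A promoter feature assigned by the authors was present in 1090 of the regions (38.1%). Among regions with 1 listed gene the farthest one with the feature lay 3083 bp from the start and the nearest one without it 2662 bp.

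The bound DNA itself is not printed, since no mm9 genome was used here. Sequences are shown for what the regions lie beside, from RefSeq on build GRCm38.p6: first 6 mature microRNAs, then the promoters of 3 genes bound both at the start and in the body. MicroRNA genes are listed for 52 of the regions, through 40 microRNA names of which 37 matched a RefSeq entry, and in 41 regions a microRNA start was the nearest start. The genes of miR-148b, miR-26a and miR-33 lie beside the 3 microRNA regions with the highest OL signal, and that of miR-9 beside 4 regions of 1 gene. miR-219a and miR-338 are shown for their known role in the lineage and were picked out after their values had been seen. Capitals mark the seed, bases 2 to 8, which pairs with target messages.
miR-148b-3p: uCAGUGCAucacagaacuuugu
miR-26a-5p: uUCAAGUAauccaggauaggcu
miR-33-5p: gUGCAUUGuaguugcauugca
miR-9-5p: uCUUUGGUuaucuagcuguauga
miR-219a-5p: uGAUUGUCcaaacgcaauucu
miR-338-3p: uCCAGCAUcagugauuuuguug
These 6 have different seeds. Among all matched mature microRNAs of the set, the only different ones that shared a seed were miR-15b-5p and miR-16-5p (AGCAGCA), which come from neighbouring genes beside the same region. miR-219 and miR-338 are known for promoting oligodendrocyte differentiation, and miR-33 is encoded within Srebf2, the gene of a main activator of cholesterol synthesis.

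The region 1052 bp past Mirn148b, inside Copz1, had an average signal of 2.94 in OPC and 15.6 in OL (chr15:103116331-103116883). The region 6033 bp past Mirn26a-1, inside Ctdspl, had 1.0 and 14.7 (chr9:118946696-118947197). The region 5168 bp upstream of Mirn33, inside Srebf2, had 1.78 and 12.8 (chr15:82022956-82023810). All of these were called in OL only and had the 3 highest OL signals among the microRNA regions. Mirn26a-1 has another 2 regions upstream within Ctdspl, at 1918 bp with 6.43 in OPC and 7.5 in OL and at 5915 bp with 1.67 and 5.21, so the OL excess was not even along the locus. The region 10074 bp past Mirn219-2 and 8263 bp into Urm1 had 10.8 in OPC and 7.11 in OL and was called in both. Mirn338, within Aatk, had 4.43 and 6.56 at 2412 bp upstream and 2.5 and 6.09 at 1439 bp past it. Mirn9-1, a gene of a microRNA of neural progenitors, had 4 regions downstream within the predicted gene LOC100042277. They had 4.79 and 5.83 at 1429 bp, 5.68 and 4.5 at 4525 bp, 2.6 and 7.73 at 5445 bp and 6.04 and 3.13 at 6153 bp, OPC before OL. Neighbouring regions of that locus thus lean to opposite libraries over less than 1 kb. Over all 52 microRNA regions OPC called 16 (30.8%) and OL 46 (88.5%), beside 34.4% and 86.0% of the 2861. The median of log2((OL + 1) / (OPC + 1)) was 0.99 beside 0.84, with 26 (50%) at 1 or more beside 42.2% and 1 at -1 or less.

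Nkx2-2, Neu4 and Gpr37l1 had an island-free region within 1 kb of the start as well as a region farther in, and the 250 bases before each start are printed. Other genes with both kinds of region, such as Sox10 and Sox6, are not printed. The start region reaches over all 250 bases at Nkx2-2 and Neu4 and over 211 at Gpr37l1, if both annotations place the start at the same base. The motif searched on both strands was TNAAGTG, the core that homeodomain factors of the Nkx2 class are known to bind, and capitals mark its only match.
Nkx2-2, chr2:147186403-147186652, minus strand: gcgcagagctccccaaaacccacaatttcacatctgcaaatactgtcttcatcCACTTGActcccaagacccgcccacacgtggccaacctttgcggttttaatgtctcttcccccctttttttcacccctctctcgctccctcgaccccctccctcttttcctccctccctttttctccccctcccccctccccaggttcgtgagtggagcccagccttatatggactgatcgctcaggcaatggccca
Neu4, chr1:94020243-94020492, plus strand: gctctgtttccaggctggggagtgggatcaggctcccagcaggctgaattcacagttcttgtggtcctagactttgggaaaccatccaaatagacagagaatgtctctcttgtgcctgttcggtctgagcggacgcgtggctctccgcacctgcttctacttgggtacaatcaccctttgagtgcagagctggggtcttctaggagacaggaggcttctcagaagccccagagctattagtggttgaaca
Gpr37l1, chr1:135167682-135167931, minus strand: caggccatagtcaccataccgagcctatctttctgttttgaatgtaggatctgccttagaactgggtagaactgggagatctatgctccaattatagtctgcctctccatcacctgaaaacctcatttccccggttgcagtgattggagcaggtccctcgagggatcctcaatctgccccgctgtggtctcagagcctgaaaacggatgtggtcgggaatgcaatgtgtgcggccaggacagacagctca
The match in the Nkx2-2 promoter is on the opposite strand, reads CACTTGA as printed and begins at position -197 from the start. The letters do not occur in the other two windows. The motif was found in 3305 of 32851 RefSeq promoters of this length (10.1%), and in 63 of 772 promoters (8.16%) of the 575 matched genes that had both a start region and a gene body region.

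Gene body regions had somewhat less OPC signal than the table as a whole and were called in OL about as often. The median average signal was 2.64 in OPC (interval 2.5 to 2.82), beside 3.0 over all 37271 regions. The interquartile range of the gene body regions was 1.54 to 4.43 and their maximum 57.1. In OL the median was 5.0 (5.0 to 5.19), beside 5.0 over all regions, the interquartile range was 4.0 to 6.77 and the maximum was 58.2. The values are in the units of the deposited table, whose depth and whose scaling from library to library are unknown here. Calls in OPC were made at 983 regions (34.4%, 32.6 to 36.1%) against 38.6% of all regions. Calls in OL were made at 2460 (86.0%, 84.7 to 87.2%) against 85.3%. Both libraries called 582 (20.3%, 18.9 to 21.9%) against 23.8%. OL alone called 1878 (65.6%) and OPC alone 401 (14.0%). Regions called in both libraries were longer, 747.5 bp at the median against 549 bp for all 2861, and each of them joins at least 2 called intervals.

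The median of log2((OL + 1) / (OPC + 1)), called the log2 ratio below, was 0.84 (0.81 to 0.88) against 0.74 over all 37271 regions. It was 1 or more at 1208 regions (42.2%, 40.4 to 44.1%), where the whole set had 37.5%. It was -1 or less at 182 (6.36%, 5.49 to 7.32%), where the whole set had 7.03%. The split depends on how the libraries are scaled. With the median of regions called in both libraries set to 0, a shift of 0.24, the counts were 908 and 273. With the median of all regions set to 0, a shift of 0.74, they were 433 and 489, so the side with more regions changed. In OPC 206 of the regions were listed at 0 and in OL 27.

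**Figure D1:**
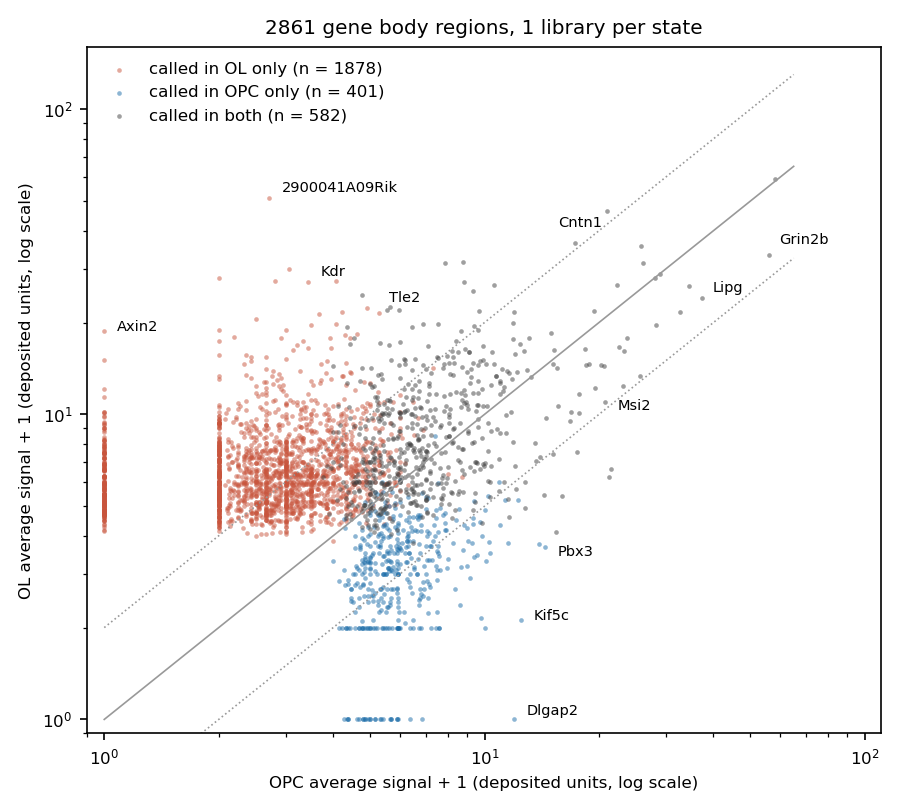
Average signal plus 1 in OPC (x axis) and OL (y axis) of each of the 2861 gene body regions, in deposited units on log scales; points are regions coloured by call, the solid line marks equal values and the dotted lines a log2 ratio of 1 and -1. Regions called in OL only form the dense cloud with OPC medians near 1.86 and OL medians near 5.24. The 10 regions with the highest OPC signal lie between the dotted lines. Several of those with the highest OL signal lie above the upper dotted line.

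The signals of a region in both libraries were loosely related. Over the 2861 regions Pearson's r between the average signals was 0.39 and Spearman's coefficient 0.02, a description in which selection by a call in at least 1 library shapes the cloud and weak values are sparse. Regions called in both had medians of 5.61 in OPC and 6.8 in OL. Those called in OPC only had 4.7 and 2.22, and those called in OL only 1.86 and 5.24. The share of all regions on a chromosome that belonged to this set ran from 4.54% on chromosome 13 to 10.2% on chromosome 7.

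Within the set the OPC signal was higher close to the start, while the OL signal was nearly level. Between 1 and 2 kb from the nearest start, 424 regions had medians of 3.18 in OPC and 4.77 in OL, a median log2 ratio of 0.66 (0.56 to 0.74). OPC calls were made at 40.3% of them, and 30.7% (26.3 to 35.3%) had a log2 ratio of 1 or more. At 2 to 3 kb the medians were 2.82 and 4.94 and the ratio 0.79, and at 3 to 4 kb they were 2.5 and 5.0 and 0.92 (0.84 to 0.98). Beyond that the ratio of the 1 kb steps stayed between 0.82 and 0.96 up to 10 kb. The OPC median did not fall steadily. It was 2.27 at 6 to 7 kb but 2.88 at 8 to 9 kb and 2.83 at 9 to 10 kb, about that at 2 to 3 kb. The ratio at 9 to 10 kb was 0.82. The 2064 regions at 3 to 10 kb had medians of 2.5 and 5.19 and a ratio of 0.90 (0.86 to 0.95), with OPC calls at 32.6% and a log2 ratio of 1 or more at 44.7% (42.6 to 46.9%). The step from 1 to 2 kb to 3 to 10 kb was 0.25 on the log2 scale. The limits of the set are set by annotation and not by signal: regions at 0.5 to 1 kb inside genes had a ratio of 0.58 and those at 10 to 11 kb 0.99. Right at the limits, 48 regions at 900 to 1000 bp had a median ratio of 0.54 and 37 at 1000 to 1100 bp 0.84, and 123 at 9500 to 10000 bp had 0.80 and 121 in the next 500 bp 0.99. Values like those at 1 to 2 kb also occurred farther in. At 14 to 15 kb, outside the set, 169 regions had an OPC median of 3.47, OPC calls at 48.5% and a ratio of 0.68.

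**Figure D2:**
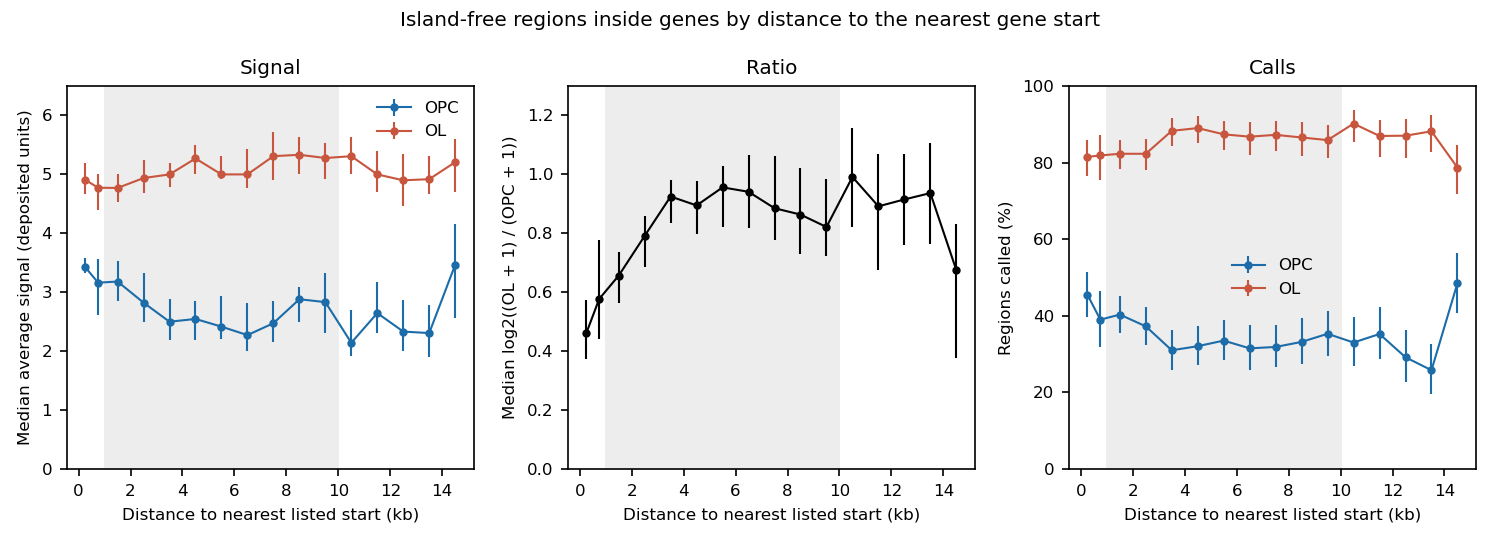
Island-free regions inside genes by distance to the nearest listed start in kb (x axis, grey band for the 1 to 10 kb set): median average signal in deposited units, median log2 ratio and percent of regions called, with 95% intervals over regions as bars. The OPC median goes from 3.43 below 0.5 kb to 2.27 at 6 to 7 kb and is 2.83 at 9 to 10 kb. The OL median stays between 4.77 and 5.33 up to 11 kb. At 14 to 15 kb the OPC median is 3.47.

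Compared with island-free promoter regions, within 1 kb of a start, gene body regions had less OPC signal and the same OL signal. The 1102 promoter regions had medians of 3.5 in OPC and 5.0 in OL and a median log2 ratio of 0.54 (0.49 to 0.58), 0.30 below that of the gene body regions. OPC calls were made at 45.6% (42.7 to 48.6%) of them, and 22.6% (20.2 to 25.2%) had a ratio of 1 or more. Deeper regions of the gene body were much closer. In 7778 regions at 10 to 100 kb the medians were 2.65 and 5.16 and the ratio 0.88 (0.85 to 0.90), with 44.9% (43.8 to 46.0%) at 1 or more. In 4483 regions beyond 100 kb they were 2.69, 5.0 and 0.87, with 44.0%. The median ratio at 1 to 10 kb was thus 0.04 below that at 10 to 100 kb, with intervals that overlap, and no test of either difference was possible with 1 library per state.

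**Figure D3:**
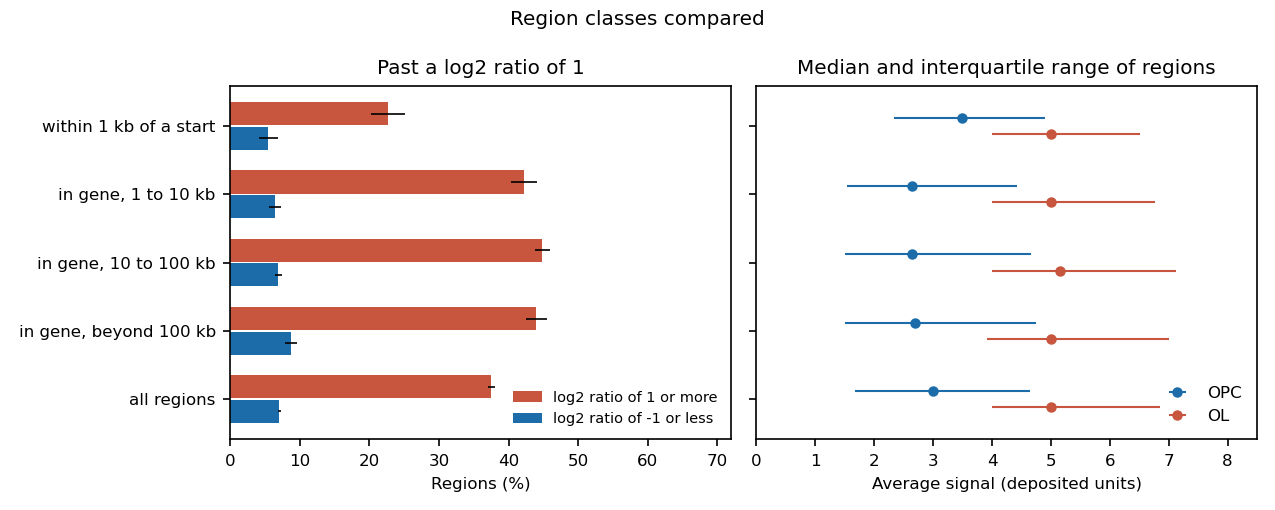
Percent of regions at log2 ratios of 1 or more or of -1 or less (left, bars with exact 95% intervals over regions) and median average signal with the interquartile range over regions (right, deposited units) in 5 classes of regions. The 1 to 10 kb class, with 42.2% at 1 or more, lies near the deeper gene body classes (44.9% and 44.0%) and above the island-free promoters (22.6%).

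Neither the owner of the nearest start nor the promoter feature split the set strongly. Regions nearest to the start of their own gene had a median log2 ratio of 0.84, and the 505 nearest to another gene's start 0.87, with OPC medians of 2.63 and 2.78 and OL medians of 5.0 and 5.31. The 1090 regions that carry the authors' promoter feature had a ratio of 0.80, and 39.4% of them were at 1 or more. The 1771 without it had 0.88 and 44.0%.

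The strongest gene body regions in OPC were all called in both states. The highest lay 14071 bp into Asahl and 7832 bp upstream of Ppef2, with 57.1 in OPC and 58.2 in OL (chr5:92692748-92693524). Grin2b, which encodes an NMDA receptor subunit, followed with 55.0 and 32.4 at 7894 bp into the gene (chr6:136115236-136116035). Lipg, the gene of endothelial lipase, had 36.4 and 23.1 at 4315 bp (chr18:75115979-75116911). The other 7 of the highest 10 lay in Coro2b (33.5 and 25.4), Efhd2 (31.7 and 20.6), Hspa12a (28.0 and 27.7), Spata2 (27.3 and 18.7), Tcba1 (27.0 and 27.0), Dhrs2 (25.04 and 30.4) and Myo18b (24.8 and 34.7). None of these 10 had a log2 ratio past 1 in either direction. Of the 100 strongest regions of the whole table in OPC 8 belonged to the set, and of the 100 strongest in OL 9.

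The strongest regions in OL were more mixed. A region 5151 bp into 2900041A09Rik had 50 in OL and 1.71 in OPC and was called in OL only (chr13:74151803-74152351). Rapgef3, the gene of the cAMP-activated exchange factor Epac1, had 45.3 in OL and 20.0 in OPC at 7463 bp (chr15:97590393-97590887). Cntn1, which encodes the adhesion protein contactin-1 of the axon-glia junction, had 35.3 and 16.3 at 9118 bp (chr15:91967354-91968129). C130039O16Rik had 30.7 and 7.77, Il6ra, the interleukin-6 receptor gene, 30.3 and 6.88, and Paics, a gene of purine synthesis, 28.9 and 2.07. Asahl, Myo18b, Grin2b and Dhrs2, given above, completed these 10.

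The largest differences toward OL, among regions above the median mean signal of the set, came mostly from regions listed at 0 in OPC, for which no fold is given. Axin2, a feedback inhibitor of Wnt signalling, had 17.7 in OL there at 5458 bp (chr11:108786955-108787321). It was followed by 4930556A17Rik (14.1), Myo1g (11.2), the tetraspanin gene Tspan11 (10.4), Styxl1 (9.2), Ap2s1, a subunit gene of the clathrin adaptor AP-2 (9.16), Cntd1 (9.09) and the GTPase-activating protein gene Dlc1 (8.89), all listed at 0 in OPC. Cyb5r4, a cytochrome b5 reductase gene, had 26.9 and 1.0 at 6275 bp (chr9:86927845-86928324), and 2900041A09Rik is given above. All 10 were called in OL only, beside 65.6% of the 2861. Their choice by ratio largely fixes that call, since all 206 regions listed at 0 in OPC were called in OL only. The Dlc1 region lies 28276 bp in and was included through the start of LOC100042892. Toward OPC the 10 largest differences included 1 region listed at 0 in OL. Dlgap2, a gene of a postsynaptic scaffold protein, had 10.96 in OPC at 4851 bp and was listed at 0 in OL (chr8:14100323-14101129). The kinesin gene Kif5c had 11.4 and 1.11 at 8445 bp, a log2 ratio of -2.56 (chr2:49483116-49483443). The homeodomain gene Pbx3 had 13.4 and 2.67 at 7944 bp, and the forkhead gene Foxp4 14.5 and 3.1 at 9531 bp. The other 6 lay in Vac14 (9.0 and 1.0), Ech1 (8.77 and 1.14), Brunol4 (12.9 and 2.75), LOC100042166 (7.61 and 1.36), A130023I24Rik (20.2 and 5.24) and LOC100041869 (20.5 and 5.63). Of these 10, Foxp4, A130023I24Rik and LOC100041869 were also called in OL. The regions in Vac14 and Brunol4 lie 100895 and 163822 bp in and were included through the start of a neighbouring gene.

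The regions fell in 2501 host genes, out of 14473 genes listed in the table. More than 1 region was found in 405 of these genes, 3 or more in 66, and the largest number, 4, in 15. These 15 were 3110082I17Rik, 6530418L21Rik, Itpr2, LOC100042277, Midn, Mro, Ptprj, Sirt2, Slc12a4, St6gal1, Ston2, Thra, Tmem108, Tnk2 and Zmiz1. In 6530418L21Rik the regions leaned to OPC or lay near equality, with 5.27 and 5.33 at 2092 bp, 9.08 and 2.32 at 5621 bp, 5.54 and 2.17 at 7354 bp and 4.52 and 4.95 at 9419 bp, OPC before OL. Midn was mixed, with 2.33 and 4.18 at 4071 bp, 4.5 and 2.0 at 5696 bp, 7.1 and 12.6 at 7266 bp and 5.97 and 8.03 at 8796 bp. In St6gal1, a sialyltransferase gene, all 4 were called in OL only, with OL values from 4.64 to 9.71 and OPC values from 1.18 to 3.89. Only the St6gal1 region at 2172 bp lies within 10 kb of that gene's start, and the others were included through BC106179. All 4 regions of 3110082I17Rik, at 41772 to 77641 bp, and of Ptprj, at 97395 to 110197 bp, were also included through the start of another gene. So were some regions of Sirt2, Slc12a4, Ston2, Tmem108, Tnk2 and Zmiz1.

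Neighbouring regions of one gene resembled each other only in part. The set holds 325 adjacent pairs in 284 genes, with a median gap of 2566 bp. Across pairs, which share libraries and locus, the log2 ratios had a Spearman's coefficient of 0.25 and a Pearson's r of 0.29, given as a description. Both members of a pair were at 1 or more in 74 pairs, both at -1 or less in 3, and they lay past 1 in opposite directions in 11. The gene of the OPC proteoglycan brevican, Bcan, is one of these, with 7.79 and 2.6 at 1305 bp and 2.83 and 9.12 at 9156 bp.

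Of 22 OPC marker genes 14 had 19 of these regions, of which OPC called 7 (36.8%) and OL 14 (73.7%), beside 34.4% and 86.0% of the 2861. Of the 19, 10 had a log2 ratio of 1 or more and 4 one of -1 or less, beside 42.2% and 6.36%, and the median was 1.09 beside 0.84. The 5 regions called in OPC only lay in Ncan, Ptprz1, Bcan and Sox6, the last of these a transcription factor gene that keeps progenitors undifferentiated. Ncan, the neurocan gene, had 8.83 in OPC and 3.0 in OL at 1895 bp (chr8:72642527-72643102), and Ptprz1, a receptor phosphatase gene, 4.54 and 2.5 at 1990 bp (chr6:22827287-22827697). Sox6 had 6.17 and 1.73 at 3764 bp (chr7:123170612-123170983), and 5.39 in OPC with 0 listed in OL at a region 197199 bp in. The Bcan region at 1305 bp (chr3:87802613-87803081) is given above, and the other Bcan region was called in OL only.

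The other OPC marker regions had more OL signal. At Pdgfra, which encodes the PDGF receptor of progenitors, the values were 8.3 in OPC and 24.3 in OL (chr5:75558985-75559993), and at Cspg4, the NG2 proteoglycan gene, 5.16 and 5.9. Both of these were called in both states. Gpr37l1, an orphan receptor gene, had 2.78 and 9.05 at 4475 bp and 1.89 and 5.2 at 6688 bp. Neu4, a sialidase gene, had 2.0 and 7.0 at 7231 bp. Megf11 had 1.4 and 7.71, Epn2 1.0 and 6.05, and Lhfpl3 1.88 and 12.6 at a region included through a neighbouring gene. Tnr, the tenascin-R gene, had 1.9 and 7.14 at 9154 bp and 3.5 and 5.5 at 9789 bp. Xylt1, a gene of proteoglycan chain synthesis, had 2.63 and 6.7 at 2906 bp and 2.1 and 4.13 at 3963 bp, and Vcan, the versican gene, 3.48 and 4.94. All of those from Gpr37l1 on were called in OL only.

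Lineage transcription factors had 17 of these regions in 10 of 25 genes, 8 called in OPC (47.1%, beside 34.4% of the 2861) and 14 in OL (82.4%, beside 86.0%). The median log2 ratio was 0.73 beside 0.84, or -0.0026 with the median of all regions set to 0, with 6 regions (35.3%, beside 42.2%) at 1 or more and 1 at -1 or less. Nkx2-2, the gene of the factor itself, was called in both at 5501 bp, with 5.13 and 9.2 (chr2:147006070-147007205). Myrf, listed as Gm98 and known as the activator of myelin gene transcription, had 1.0 and 6.13 at 5170 bp (chr19:10306775-10307732). Zfp488, a gene known to promote oligodendrocyte differentiation, had 7.29 and 14.5 at 3731 bp and 2.0 and 6.81 at 2043 bp. Thra, the gene of a thyroid hormone receptor, had 4 regions whose OPC values lay between 2.5 and 3.13. Its OL values were 4.25 at 2324 bp, 4.2 at 5465 bp, 7.29 at 8129 bp and 9.68 at 9224 bp, highest in the region farthest in (chr11:98611820-98613003).

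Sox10, which is needed for terminal differentiation, and the nuclear factor I gene Nfix leaned to OPC. Sox10 had 3.95 and 1.53 at 6319 bp (chr15:78989513-78990163) and Nfix 4.33 and 1.67 at 5552 bp, both called in OPC only. Tcf7l2, a Wnt effector, had 3 regions close to the gene Ppnr deep inside its body, with 3.54 and 4.58, 1.0 and 3.62, and 4.4 with 0 listed in OL. The remaining regions were higher in OL and called there only, Tcf4 with 4.0 and 5.36 and with 2.18 and 5.27, Nfia with 2.43 and 3.43 and Yy1 with 1.25 and 4.16.

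Genes of newly formed oligodendrocytes had the highest median among the 4 lineage lists. All 15 of their regions, in 8 of 18 genes, were called in OL, beside 86.0% of the 2861, and 3 (20%, beside 34.4%) also in OPC. The median log2 ratio was 1.51 beside 0.84, and 1.27 or 0.78 with the median of shared or of all regions set to 0. Of the 15, 10 (66.7%, beside 42.2%) had a ratio of 1 or more and 0 one of -1 or less. Itpr2, an inositol trisphosphate receptor gene, had 4 regions between 1678 and 8920 bp, with OL values of 6.23, 6.71, 6.67 and 8.64 and OPC values of 1.43, 1.0, 1.75 and 1.0 in order of distance. Sirt2, a deacetylase gene expressed in oligodendrocytes, had 1.47 and 7.1 at 2300 bp, 5.1 and 9.81 at 7464 bp and 3.06 and 7.76 at 8625 bp. A region of Sirt2 at 17356 bp was listed at 0 in OPC and had 6.75 in OL. Enpp6, a choline phosphodiesterase gene, had 1.88 and 11.3 at 1768 bp (chr8:48073572-48074523) and 2.0 and 3.16 at 9176 bp. The remaining regions lay in Kif19a (2.5 and 10.1), Ust, a sulfotransferase gene (8.33 and 13.8), Bmp4, a signalling ligand (1.0 and 4.71), Tmem163 (2.08 and 4.59) and Gpr17, a receptor gene of premyelinating cells (4.91 and 5.67). Ust and Gpr17, with 1 of the Sirt2 regions, were those called in both.

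Myelin genes had 18 regions in 14 of 32 genes, of which OPC called 4 (22.2%) and OL 17 (94.4%), beside 34.4% and 86.0% of the 2861. Their median log2 ratio was 1.11 beside 0.84. The ratio reached 1 in 10 regions (55.6%, beside 42.2%) and was -1 or less in 1, in Cnp, listed as Cnp1. This gene of a myelin phosphodiesterase had 4.89 in OPC and 1.6 in OL at 5031 bp and was called in OPC only (chr11:100441174-100441466). Plekhb1 had the highest values of the list, 3.31 and 17.3 at 5448 bp and 14.2 and 13.6 at 8272 bp, so that neighbouring regions of that gene differed in OPC and were alike in OL. Cldn11, a tight junction gene of myelin, had 1.86 and 5.25 at 2302 bp and 1.41 and 4.72 at 6227 bp. Tspan2, a tetraspanin gene, had 2.78 and 4.46 at 2884 bp and 1.0 and 6.39 at 8648 bp.

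Ugt8a, the galactosyltransferase gene for galactocerebroside, had 1.0 and 3.75 at 2615 bp. Gal3st1, the sulfotransferase gene that makes sulfatide from it, was listed at 0 in OPC and had 5.0 in OL at 3756 bp. Mobp had 1.67 and 5.3, Ndrg1 1.62 and 4.6 and Nfasc, a gene for a paranodal adhesion protein, 1.0 and 8.37. Cntnap1, its partner on the axon, had 5.0 and 7.65, Opalin, listed as Tmem10, 4.38 and 7.18, Pllp 4.0 and 4.05 and Mbp, the myelin basic protein gene, 3.1 and 4.09 at a region included through a neighbouring start. The Nkx2.2 targets named in earlier work shared Pdgfra, Mbp, Sirt2, Tcf7l2 and Nkx2-2 with these lists. Their 13 regions in 7 of 13 genes had 6 OPC calls (46.2%) and 12 OL calls (92.3%), beside 34.4% and 86.0% of the 2861. The median was 1.05 beside 0.84, with 7 regions (53.8%, beside 42.2%) at 1 or more and 1 at -1 or less. Only 6 of the 13 regions lie within 10 kb of the start of the listed gene.

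**Figure D4:**
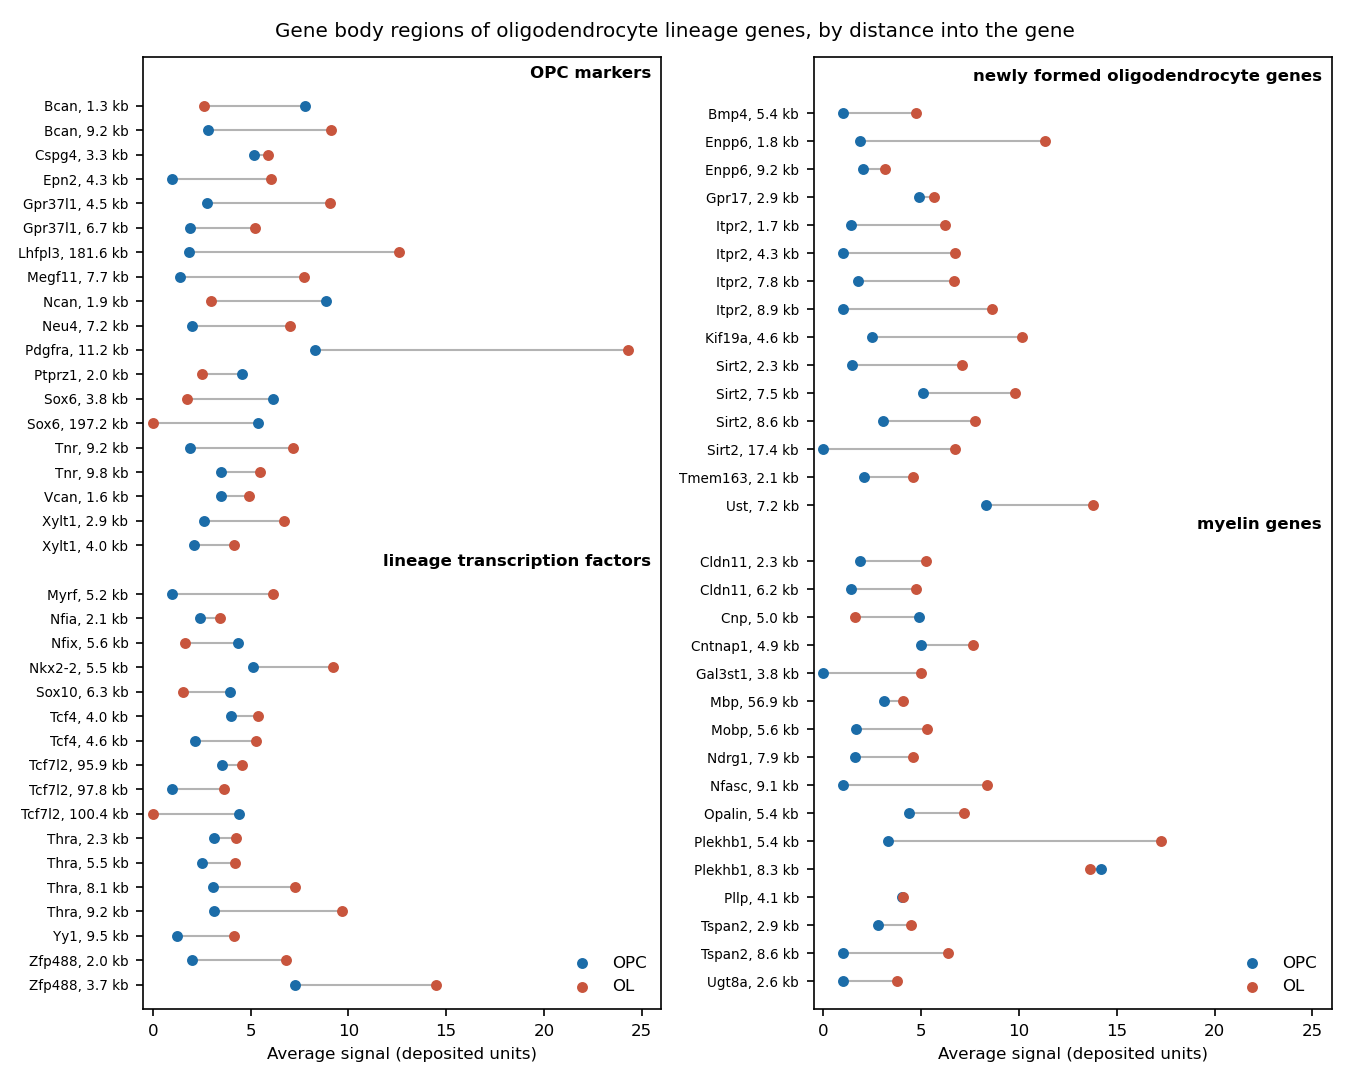
Average signal (x axis, deposited units) in OPC (blue) and OL (red) of gene body regions of 4 gene lists, each row labelled with the gene and the distance from that gene's start in kb; 1 library per state. OL lies to the right of OPC in all 15 regions of newly formed oligodendrocyte genes, while Ncan, Ptprz1, Sox6, Sox10, Nfix, Cnp and 1 region each of Bcan, Tcf7l2 and Plekhb1 lie to the left.

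The lists below are to be read beside the 2861 regions as a whole, of which OPC called 34.4% and OL 86.0%, 42.2% had a log2 ratio of 1 or more and 6.36% one of -1 or less, and whose median was 0.84. Cholesterol and lipid synthesis genes had 9 regions in 7 of 24 genes, 1 called in OPC (11.1%) and 9 in OL, a median log2 ratio of 1.14 and 6 regions (66.7%) at 1 or more. Elovl6, a fatty acid elongase gene, had 7.29 and 13.8 at 4070 bp, and Srebf2 the 1.78 and 12.8 given with miR-33. BMP and TGF-beta genes had 8 regions in 6 of 36 genes, 3 called in OPC (37.5%) and 6 in OL (75%), a median of 1.25 and 6 (75%) at 1 or more. The Smad genes encode the signal transducers of that pathway. Smad2 had 5.29 and 11.6, and Smad3 2.3 and 7.43 at 2993 bp and 1.0 and 5.79 at 7585 bp.

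Wnt genes had 10 regions in 6 of 33 genes, 5 called in OPC (50%) and 7 in OL (70%), with 0.75 as the median log2 ratio, 5 (50%) at 1 or more and 1 at -1 or less, in Tcf7l2. Axin2 accounted for 3 of those at 1 or more, with 1.2 and 4.62 at 4501 bp, 0 and 17.7 at 5458 bp and 1.0 and 8.33 at 6829 bp. Dvl3, a gene of a signal transducer below the Frizzled receptors, had 7.07 and 4.08. Notch genes had 4 regions in 4 of 26 genes with a median of -0.05, including the receptor gene Notch1 (6.5 and 4.91) and Lfng, a glycosyltransferase gene that modifies Notch (5.36 and 2.0). Hedgehog genes had 4 regions in 4 of 14 genes, with a median of 0.41, or -0.33 with the median of all regions set to 0. The effector gene Gli1 had 4.12 and 6.25 and the transducer gene Smo 5.44 and 3.14. The Smo region lies 23187 bp in and was included through the start of 4631427C17Rik.

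FGF, ErbB and insulin receptor genes had 11 regions in 10 of 28 genes, 5 called in OPC and 9 in OL, and a median log2 ratio of 0.36, or -0.37 with the median of all regions set to 0. Erbb3, the gene of a neuregulin receptor, stood out with 2.68 and 11.7 at 1315 bp and 1.63 and 11.8 at 2874 bp. The adaptor gene Gab1 had 5.65 and 7.56 at 10494 bp, in a region included through the start of LOC100039496. PI3K, Akt and mTOR genes had 3 regions in 3 of 26 genes with a median of -0.04. The regulatory subunit gene Pik3r1 had 10.3 and 4.22 at 8315 bp and the kinase gene Akt1 8.07 and 7.84 at 9882 bp. Thyroid hormone genes had 7 regions in 4 of 16 genes with a median of 0.57, or -0.17 on the scale just named. They comprise the Thra regions above and the coactivator gene Ncoa2 with 1.57 and 4.93.

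Chromatin factors and corepressors had 10 regions in 9 of 32 genes, 4 called in OPC and 8 in OL, and a median log2 ratio of 0.66, or -0.07 with the median of all regions set to 0. The Tle genes encode the Groucho corepressors. Tle2 had 4.27 and 20.6 at 6326 bp (chr10:81044313-81044894), while Tle3 had 6.96 and 2.14 at 4429 bp and 1.25 and 9.87 at 7646 bp, which lean to opposite libraries. Cell cycle genes had 2 regions in 2 of 29 genes, E2f3 with 4.0 and 6.0 and Rb1 with 4.4 and 3.3. Their median was 0.08, or -0.66 with the median of all regions set to 0 and -0.17 with that of shared regions set to 0. The Rb1 region lies 86608 bp in and was included through the start of P2ry5.

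RNA-binding and splicing regulators were the list with the lowest median, -0.46, which the rescalings can only lower because they subtract positive values. They had 9 regions in 8 of 31 genes, 5 called in OPC and 7 in OL, with 1 at 1 or more and 1 at -1 or less. Msi2, a gene of a translational regulator of progenitors, had 19.8 and 10.0 at 6713 bp (chr11:88396542-88397335) and 7.7 and 5.21 at 1963 bp. Ptbp1, a splicing repressor gene, had 10.3 and 5.0 at 3870 bp. In axon guidance genes 19 regions in 16 of 38 genes had a median of 0.30, or -0.44 with the median of all regions set to 0, with 10 called in OPC and 15 in OL. The semaphorin receptor gene Plxna2 had 21.3 and 25.6, and Dpysl2, a gene of a collapsin response mediator, 1.92 and 12.2.

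Cytoskeleton and small GTPase regulators had 15 regions in 14 of 43 genes, 2 called in OPC (13.3%, beside 34.4% of the 2861) and 13 in OL (86.7%, beside 86.0%), a median log2 ratio of 0.99 and 7 (46.7%, beside 42.2%) at 1 or more. Cdc42, a small GTPase gene, had 1.0 and 9.71 at 3480 bp and the formin gene Daam1 2.65 and 6.06 at 1359 bp. Cell adhesion and matrix genes had 13 regions in 9 of 38 genes, all 13 called in OL and 4 in OPC, and a median of 0.68, or -0.05 with the median of all regions set to 0. Beside Cntn1 the highest was Ncam1, a neural adhesion gene, with 11.8 and 3.93 at 5829 bp. Ion channels and transporters had 16 regions in 12 of 42 genes, 9 called in OPC and 14 in OL, and a median of 0.25, or -0.48 on that scale. Kcnj10, the gene of the glial potassium channel Kir4.1, had 4.41 and 6.96 at 1683 bp and 6.53 and 14.3 at 8822 bp, beside the Grin2b region above.

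Such regions were present at 1 of 12 neuronal markers (Syn1, 2.44 and 10.7, and 1.0 and 5.56), 2 of 12 astrocyte markers (S100b, 1.95 and 6.07, and Slc1a3, 8.44 and 6.0), 0 of 12 microglial markers and 1 of 10 vascular markers. Of these lists 6, 11, 5 and 4 genes are listed in the table, and 17.3% of all listed genes hold a gene body region of this kind. Both Syn1 regions lie deep in that gene, at 57013 and 46659 bp, and were included through the start of Timp1. The vascular marker was Kdr, the gene of a VEGF receptor, with 2.43 in OPC and 26.1 in OL at 1555 bp (chr5:76372452-76373345). The part of other cells in these signals was not tested. Of 15 housekeeping genes 0 had a region in the set, while 13 had some region in the table.

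There were 2172 genes with one of these regions inside them and within 10 kb of their own start. Of these, 950 (43.7%) also had a region within 1 kb of the start, beside 48.9% of all 14473 listed genes. In 797 of the 950 (83.9%) the start region carried a CpG island. Each gene is represented by its highest region of either kind. The median log2 ratio was 0.84 in the body and 0.58 at the start, and the body ratio was the larger in 577 genes (60.7%). The ratio was 1 or more in 396 body regions and 205 start regions, and in both for 92 genes. It was -1 or less in 64 and 15. The mean signal of both libraries was higher in the body in 397 genes (41.8%). Across the 950 genes, whose regions share libraries, the ratios of body and start had a Spearman's coefficient of 0.09 and a Pearson's r of 0.08.

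**Figure D5:**
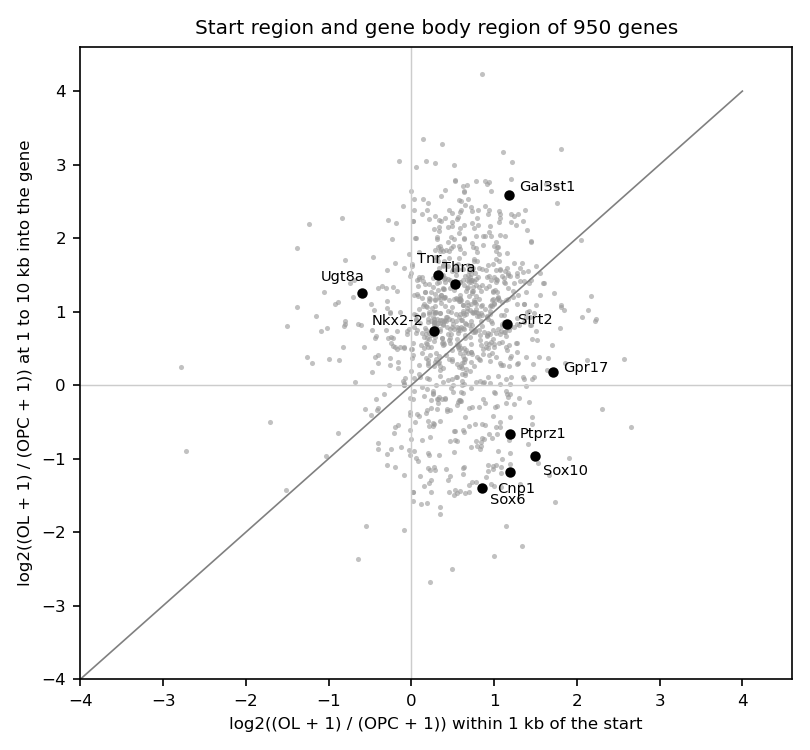
Log2 ratio of the region within 1 kb of the start (x axis) and of the highest gene body region at 1 to 10 kb (y axis) of 950 genes, 1 point per gene, with lineage genes in black and the line of equal ratios. Start ratios gather around their median of 0.58 while body ratios are spread more widely around 0.84, and Sox10, Sox6, Cnp1 and Ptprz1 have positive start and negative body ratios.

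Of 23 genes of the OPC marker, lineage factor, newly formed oligodendrocyte, myelin and Nkx2.2 target lists with both kinds of region, 18 had log2 ratios of the same sign at the start and in the body and 5 of opposite sign, as had 26.2% of the 950. The start region of Sox10 had 1.83 in OPC and 6.98 in OL against 3.95 and 1.53 in the body, that of Sox6 2.59 and 5.48 against 6.17 and 1.73. The start region of Cnp1 had 4.63 and 11.8 against 4.89 and 1.6, and that of Ptprz1 1.64 and 5.0 against 4.54 and 2.5. In these 4 of the 5 genes, singled out after their values were seen, the start was called in OL only and the body in OPC only.

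At Ugt8a, the fifth, the order was turned around, with 4.67 and 2.75 at the start and 1.0 and 3.75 in the body. Nkx2-2 had 4.44 and 5.57 at the start and 5.13 and 9.2 in the body, Neu4 2.5 and 7.71 and then 2.0 and 7.0, and Gpr37l1 2.83 and 8.85 and then 2.78 and 9.05. In the last 2 genes, whose promoters are printed above, start and body were nearly alike. Gpr17 had 4.88 and 18.2 at the start and only 4.91 and 5.67 in the body, and Sirt2 8.28 and 19.7 and then 5.1 and 9.81. Over all 950 genes the body region was called in OPC only in 129. In 74 of these (57.4%) the start was called in OL only, close to the 57.6% of all 950 starts with that call. Conversely, 610 genes had a body region called in OL only, and in 30 of them (4.92%) the start was called in OPC only, beside 5.79% of all 950 starts.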

How the data were processed

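Nkx2.2 ChIP-seq of cultured mouse OPC and OL was analysed with 1 library per state, and the input library was not used. Per the file headers, the authors merged the intervals called in each library into regions and deposited the average and highest signal of each library per region, with listed genes, positions and distances to their starts. The submitters' processing notes name BWA, MACS 1.4.2 and the build mm9. What is not given in the sources used here is how calls were thresholded, whether the input was used and how signals were scaled. The deposited signal is not a read count, so depth is unknown, and coverage behind a single value cannot be stated. The headers do not say if region starts are counted from 0.

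Gene body regions were selected by the rule in the report. The log2 ratio of OL to OPC average signal used a pseudocount of 1, which understates ratios of weak regions, and no filter on low signal. Shares carry exact Clopper-Pearson 95% intervals and medians order-statistic 95% intervals. No test was run, since each state has 1 library. The 25 gene lists and the rule for the regions were chosen with earlier results of these data known, although the rule itself uses no signal value. Named genes are those of the 10 highest regions per library, the 10 largest and 10 smallest log2 ratios where the mean signal was above its median, the genes with most regions (15 tied), every gene of the OPC marker, lineage factor, newly formed oligodendrocyte, myelin and Nkx2.2 target lists, the 2 highest genes of every other list, and the 3 highest microRNA regions. Some genes that this rule names are not reported here. Older symbols were matched by name, and a region was assigned to the gene it lies in. The steps were checked on simulated data. Alternatives were other pseudocounts, the highest signal, rescaling, a low-signal filter and stricter sets of regions. Python 3.11.15 with pandas 2.3.3, numpy 2.4.6, scipy 1.17.1 and matplotlib 3.10.9 was used.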

Additional observations from a re-analysis of the deposited data

How the results depend on the processing

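With 1 library per state, nothing here separates a difference between states from one between libraries, and the unknown depth limits what weak regions can show. No paired analysis was possible because each state has 1 library and no test was run. No single region with a log2 ratio past 1 or -1 changed sign in the alternatives run. Only the highest signal could have changed it, since other pseudocounts, shifts below 1 and smaller sets of regions cannot. Several list medians above 0 did change sign with the median of all regions subtracted, as given in the report. That of lineage transcription factors went from 0.73 to -0.0026, and that of cell adhesion and matrix genes from 0.68 to -0.05. The median log2 ratio of 0.84 was 0.95 and 0.69 with pseudocounts of 0.5 and 2, 1.22 with the highest signal, 0.60 and 0.11 with the median of shared or of all regions subtracted, 1.01 with the higher signal at or above the median of all regions, 0.88 above 2000 bp and 1.00 in regions of 1 interval. The 1208 regions at 1 or more became 433 with the median of all regions subtracted, 705 with the filter, 574 up to 5000 bp and 681 with 1 listed gene. The 182 at -1 or less became 114 with a pseudocount of 2, 312 with the highest signal, 489, 86, 92 and 105 with the 4 settings just named. The filter, the limit of 5000 bp and that of 1 listed gene (1647 regions) keep only part of the 2861. Their counts therefore have smaller totals. The median log2 ratio was 0.82 up to 5000 bp and 0.83 with 1 listed gene. Regions of 1 interval, which cannot be called in both, had OPC calls at 17.6%, OL calls at 82.4%, both at 0% and medians of 2.09 and 4.89. Counting only calls at or above their library's median signal gave 17.3%, 42.5% and 9.40%. Comparisons between distances were chosen after seeing the data. With the highest signal the step from 1 to 2 kb to 3 to 10 kb was 0.43, the difference from island-free promoters 0.49 and that from regions at 10 to 100 kb 0. Of 194 named regions, 7 and 20 changed side of a log2 ratio of 1 with pseudocounts of 0.5 and 2, 32 with the highest signal, and 23 and 67 with the median of shared or of all regions subtracted.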
